A study of Mus musculus with 11 samples.

Results

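The expression of 41 interferon-stimulated genes was examined in muscle stem cells of middle-aged and geriatric mice. The genes were taken as a fixed list of symbols, chosen with earlier results of these data known. Shares of these genes set beside shares of all genes are therefore descriptive. All 41 were found among the 20640 gene symbols of the deposited RPKM table (reads scaled by gene length and by the size of the library). Of these, 38 reached 1 RPKM in at least 2 of the 11 libraries and were tested with the other genes that did, 11568 in all. Oas2, Oas3 and Ifi44 did not reach that level.

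Every animal carried Pax7-CreERT2;Rosa-YFP, in which tamoxifen-activated Cre expressed from the stem cell gene Pax7 switches on a yellow fluorescent protein (YFP), and all received oral tamoxifen for 5 days at 12 to 14 weeks of age (240 mg per kg by the labels). The sort from digested limb muscle kept YFP+ cells and removed those with Sca-1 (gene Ly6a), CD31 (Pecam1) or CD45 (Ptprc). For the 3 middle-aged libraries the age is labelled 10 to 14 months and described as 12 to 14 months in the protocol, and their titles name no VCAM1 gate. Geriatric cells (mice over 28 months old) came from gates on surface VCAM1, with 3 libraries titled VCAM1-high, 2 VCAM1-low and 3 VCAM1-negative. The series' own text names the lower gates differently from the titles, which are followed here. A comparison with the middle-aged group therefore differs in age, in gate and in how long ago the cells were labelled, which cannot be told apart. The labels do not say whether libraries come from separate animals or pools, so the p-values reflect the spread of these libraries alone, which may be technical.

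Interferons are secreted proteins that bind receptors on the cell surface. The receptors activate JAK kinases and STAT transcription factors. Type I interferon acts through a complex that contains STAT2 and IRF9 and binds the interferon-stimulated response element (ISRE), and type II interferon, the product of Ifng, acts through the gamma-activated site (GAS). The induced genes include antiviral effectors, sensors of foreign nucleic acid, and the factors IRF1, IRF7, IRF9 and STAT2 themselves, so the response feeds on its own products.

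Promoter sequence was available for 32 of the 41 genes (RefSeq, build GRCm38.p6, windows of 250 bases before and 50 bases after each annotated start). The ISRE core searched was GAAA, any 2 bases and GAAA again, which reads TTTC, 2 bases and TTTC on the other strand. It was found in 18 of these 32 genes (56.2%), against 3.99% of 27025 genes with a window. The GAS core TTCNNNGAA, which reads the same on both strands, was found in 9 of the 32 genes (28.1%) and in 9.55% of all genes with a window. In Ifitm3 and Bst2 a GAS match shares bases with an ISRE match. The stretches below are shown because they carry the element that the name of these genes refers to. They are the 4 members with an ISRE core before the start and the smallest p between VCAM1-high and middle-aged cells, and Isg15, which was added after its values were seen. Each is written 5′ to 3′ on the strand of its gene, with the ISRE cores in capitals and 25 bases on either side.
Ifit1 (chr19:34640760-34640838, plus strand, 129 to 51 bases before the start): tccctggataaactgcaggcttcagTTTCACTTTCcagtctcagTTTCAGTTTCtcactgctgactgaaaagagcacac
Gbp7 (chr3:142530258-142530317, plus strand, 78 to 19 bases before the start): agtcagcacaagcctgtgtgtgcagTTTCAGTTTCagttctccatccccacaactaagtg
Ifit3 (chr19:34583348-34583441, plus strand, 181 to 88 bases before the start): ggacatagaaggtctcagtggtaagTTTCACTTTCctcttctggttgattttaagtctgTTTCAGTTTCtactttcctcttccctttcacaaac
Stat2 (chr10:128270251-128270310, plus strand, 247 to 188 bases before the start): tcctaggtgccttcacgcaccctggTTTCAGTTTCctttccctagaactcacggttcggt
Isg15 (chr4:156200850-156200921, minus strand, 103 to 32 bases before the start): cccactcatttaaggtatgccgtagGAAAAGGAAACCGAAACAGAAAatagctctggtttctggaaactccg
Ifit1 and Ifit3 each hold 2 cores. Isg15 holds 3 cores that overlap one another in a single run. A match describes the letters of the window and does not show that a factor binds there.

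Values were tested as log2(RPKM + 1) with limma, fitted to all 11 libraries with 4 group means, and p-values were adjusted over all 11568 genes (Benjamini and Hochberg). Fold changes are on that scale, with standard errors of the fit, and understate the change of low genes. In bulk samples fewer cells of a type and less RNA per cell cannot be told apart. The 3 comparisons with middle-aged cells share the same 3 control libraries. From middle-aged to VCAM1-negative cells, 9 of the 38 tested members rose (23.7%; 7.06% of all tested genes rose) and 1 fell (2.63%; 7.38% of all genes fell and 14.4% changed either way). The median log2 fold change over the 38 members was 0.69, and that over all genes -0.02. From middle-aged to VCAM1-low cells 3 members rose (7.89%; 2.22% of all genes rose) and 0 fell (1.88% of all genes fell and 4.11% changed either way), with a median of 0.80 (-0.05 over all genes) and 23 higher and 1 lower at an unadjusted p under 0.05 (26.4% of all genes in either direction).

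From middle-aged to VCAM1-high cells 0 members passed the limma test (0.605% of all genes did, 0.475% higher and 0.13% lower), while 20 were higher and 0 lower at an unadjusted p under 0.05, which 14.9% of all genes reached in either direction. The median was 0.69, and that over all genes 0.04. Same-numbered VCAM1-high and middle-aged libraries deviated together from their group means (correlations 0.211, 0.332 and 0.554 for numbers 1 to 3 across genes). Over the members, the median of replicate 2 minus replicate 1 was 0.22 log2 units in VCAM1-high and -0.19 in middle-aged cells. Both number-3 libraries had the highest Pecam1 and Lyz2 of their groups, and the part of this in the correlation was not tested. No label says what the numbers mark, so the block is an alternative fit. It takes the same shift per number in all groups, while the medians of replicate 2 minus replicate 1 had opposite signs here. When limma was fitted with a block for replicate number, 11 members rose (4.17% of all genes rose) and 1 fell (2.81% of all genes fell and 6.98% changed either way). The 11 are Oasl1, Ifit1, Ifit3, Ifit3b, Irf7, Parp14, Stat2, Gbp2, Gbp7, Zbp1 and Dtx3l, and the 1 is Ifi27.

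The calls rest on few libraries. The share of all genes called in each omission is not given here, so the counts below are not set against it. Of the 10 calls in VCAM1-negative cells, 1 was left without middle-aged replicate 1 and 1 without VCAM1-negative replicate 2. Without middle-aged replicates 2 and 3, 3 and 5 were left, and without VCAM1-negative replicate 3, 3. Without VCAM1-negative replicate 1 there were 13. The 3 calls in VCAM1-low cells fell to 0 without any 1 of the middle-aged or VCAM1-low libraries and to 1 without VCAM1-high replicate 1. They were 5 without VCAM1-negative replicate 1, 6 without VCAM1-negative replicate 2, and 7 without VCAM1-high replicate 2 or 3. VCAM1-high cells had 1 call without VCAM1-high replicate 3. Oasl1 passed in VCAM1-negative cells in each of the 11 omissions of 1 library (largest adjusted p = 0.0371, limma).

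In 18 of the 38 tested members (47.4%) all 8 geriatric libraries lay above all 3 middle-aged libraries, which held for 9.04% of all tested genes. These 18 include all 4 transcription factor genes, Ifit1, Ifit3, Ifit3b, Oasl1, Oasl2, Usp18, Dtx3l, Parp14, Dhx58, Zbp1, Mx2, Gbp2, Igtp and Rsad2. None lay the other way round in all libraries, against 4.95% of all genes.

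**Figure D1:**
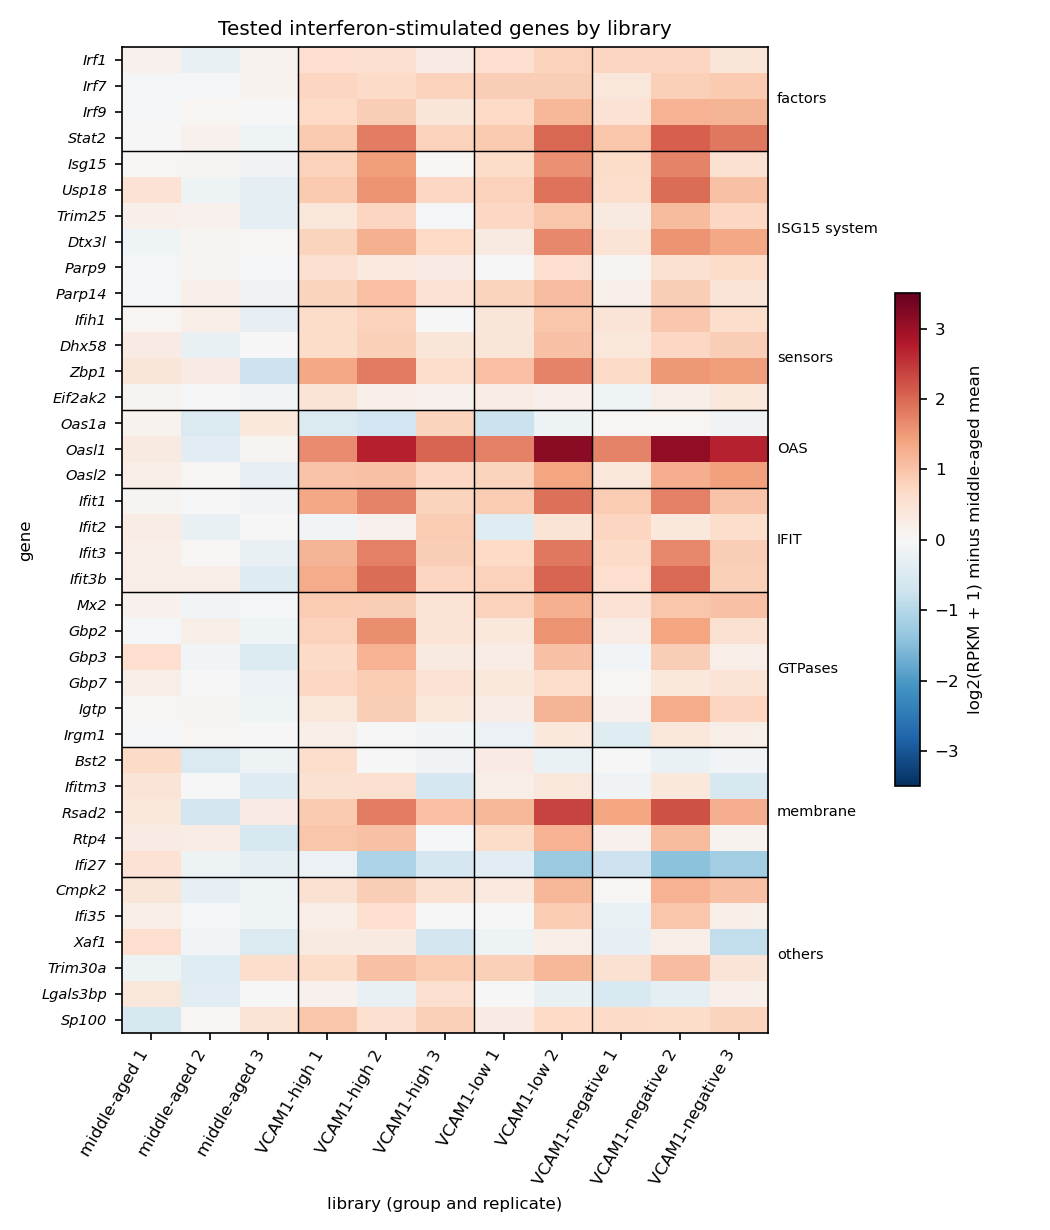
Difference in log2(RPKM + 1) from the middle-aged mean for the 38 tested members (rows, grouped by role) in each of the 11 libraries (columns). Red is above the middle-aged mean: Oasl1, Stat2 and Rsad2 are deepest in the number-2 geriatric libraries, while Ifi27 is below the mean in every geriatric library.

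Among the signalling genes, Stat2, the partner of IRF9 in the ISRE-binding complex, changed most. It read 18.9, 21.1 and 16.9 RPKM for middle-aged replicates 1 to 3, 36.5, 67.2 and 33.5 for VCAM1-high, 36.6 and 79.3 for VCAM1-low, and 38.1, 84.4 and 70.6 for VCAM1-negative. Every geriatric library exceeded every middle-aged one. Stat2 rose by 1.64 ± 0.36 log2 units in VCAM1-negative cells (limma adjusted p = 0.0193), and the values in VCAM1-low (1.47 ± 0.41, adjusted p = 0.0639) and VCAM1-high (1.16 ± 0.36, adjusted p = 0.176; 0.0247 with the replicate block) did not pass without a block.

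Irf9, the DNA-binding subunit of the same complex, read 74.9, 82.1 and 77.4 RPKM for middle-aged replicates 1 to 3, 127, 143 and 106 for VCAM1-high, 128 and 177 for VCAM1-low, and 111, 184 and 181 for VCAM1-negative. It rose in VCAM1-negative cells by 0.97 ± 0.22 log2 units (limma adjusted p = 0.0217). Irf7, which drives later interferon transcription, read 41.5, 40.95 and 46.99 RPKM for middle-aged replicates 1 to 3, 73.5, 69.0 and 75.5 for VCAM1-high, 78.6 and 79.5 for VCAM1-low, and 57.4, 78.3 and 82.4 for VCAM1-negative. It rose in VCAM1-low (0.86 ± 0.19, adjusted p = 0.0384) and VCAM1-negative cells (0.73 ± 0.17, adjusted p = 0.0222), and in VCAM1-high cells only with the replicate block (0.74, adjusted p = 0.0216, against 0.0841 without).

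Irf1, a factor induced by interferon gamma and by inflammatory signals, was abundant in all libraries. It read 322, 242 and 320 RPKM for middle-aged replicates 1 to 3, 437, 429 and 360 for VCAM1-high, 436 and 514 for VCAM1-low, and 495, 489 and 389 for VCAM1-negative. No geriatric library overlapped the middle-aged ones, while the gates overlapped each other. The rise in VCAM1-negative cells was 0.64 ± 0.18 log2 units (limma adjusted p = 0.0418). It passed in 2 of 11 fits that each left out 1 library.

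**Figure D2:**
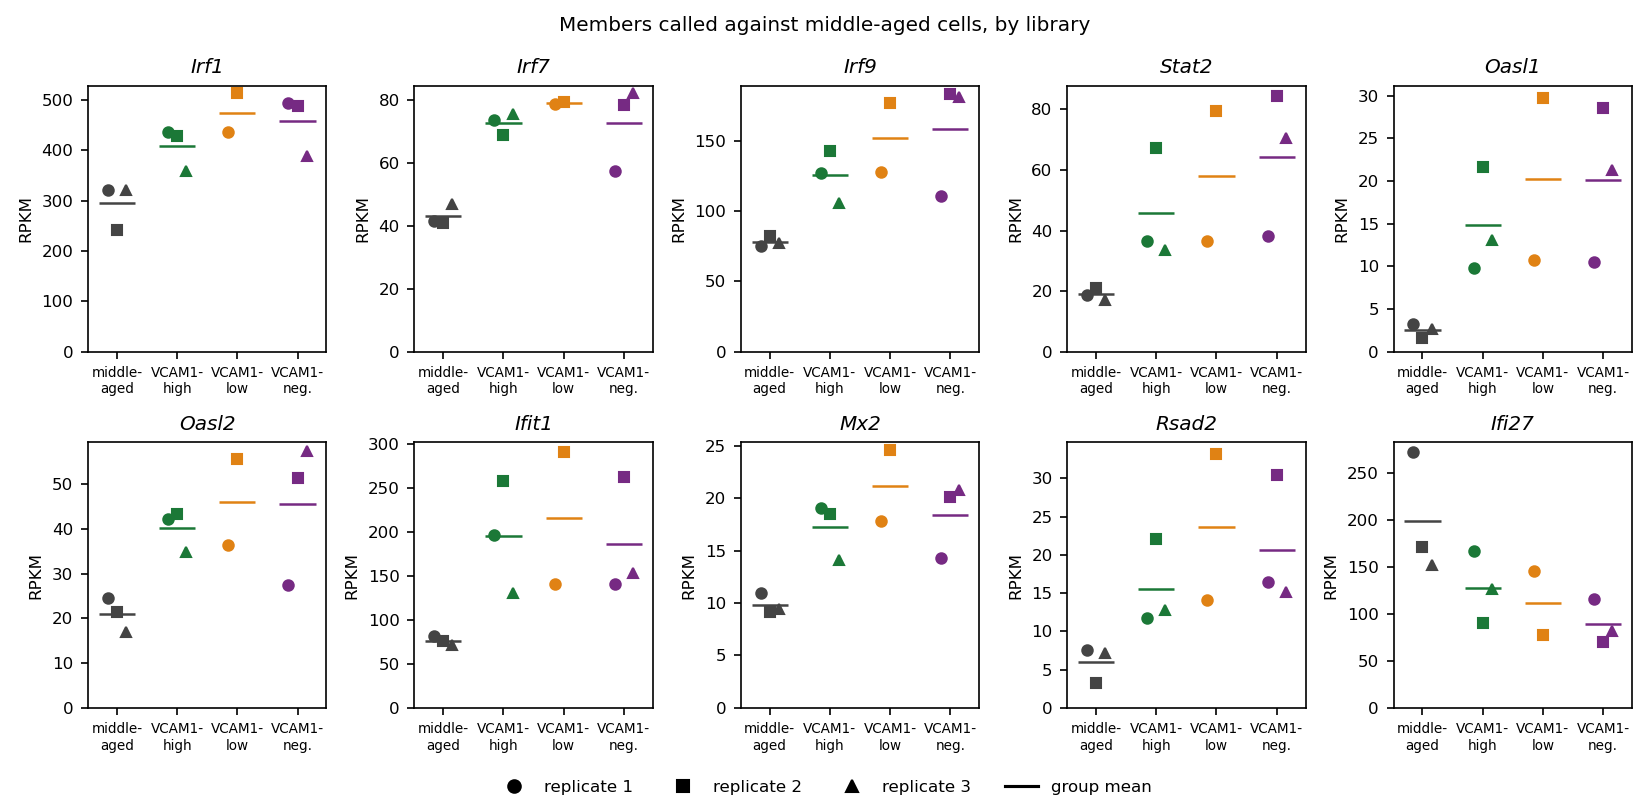
RPKM (linear axes from 0) of the 10 members that passed the test against middle-aged cells in VCAM1-low or VCAM1-negative cells. Points are libraries, with the shape giving the replicate number, and horizontal lines are group means. In Irf9, Stat2, Oasl1, Ifit1 and Rsad2 the number-2 library (square) is the highest of each geriatric gate.

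The ISG15 system includes Isg15 itself, a ubiquitin-like protein that is joined to other proteins, Usp18, which removes it and damps receptor signalling, and Trim25, a ubiquitin ligase. Dtx3l, Parp9 and Parp14 were placed in the same role group. None of the 6 genes of that group passed in any of the 6 comparisons without a block, where at most 14.4% of all genes did. Usp18 read 20.5, 12.4 and 11.01 RPKM for middle-aged replicates 1 to 3, 27.4, 44.01 and 23.8 for VCAM1-high, 25.7 and 55.1 for VCAM1-low, and 22.4, 57.2 and 30.002 for VCAM1-negative. Geriatric libraries did not overlap middle-aged ones, while the gates overlapped each other. The number-2 library was the highest of each gate, and the difference in VCAM1-negative cells was 1.203 ± 0.39 log2 units (limma adjusted p = 0.0622). Isg15 read 36.8, 37.96 and 32.8 for middle-aged replicates 1 to 3, 63.5, 101 and 37.7 for VCAM1-high, 56.0 and 111 for VCAM1-low, and 56.4, 121 and 52.2 for VCAM1-negative. VCAM1-high replicate 3 lay inside the middle-aged range, and no comparison passed (0.97 ± 0.40 in VCAM1-negative, adjusted p = 0.116).

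Dtx3l, a ubiquitin ligase that works with the ADP-ribosylation protein PARP9, read 8.17, 9.93 and 9.45 RPKM for middle-aged replicates 1 to 3, 16.4, 23.2 and 15.5 for VCAM1-high, 11.5 and 31.5 for VCAM1-low, and 13.1, 28.9 and 25.1 for VCAM1-negative. Every geriatric library was higher, and the difference missed the threshold in VCAM1-negative cells (1.13 ± 0.36 log2 units, limma adjusted p = 0.0553). Parp14, another ADP-ribosyltransferase, read 4.08, 4.86 and 3.79 for middle-aged replicates 1 to 3, 7.998, 9.92 and 6.40 for VCAM1-high, 7.93 and 9.95 for VCAM1-low, and 4.89, 8.51 and 6.19 for VCAM1-negative. Dtx3l and Parp14 were the members of this role group that rose in VCAM1-high cells with the replicate block (limma adjusted p = 0.0491 and 0.0232). Trim25 (8.30 to 24.1 RPKM) and Parp9 (20.7 to 34.5) overlapped between geriatric and middle-aged libraries.

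Of 4 genes for sensors or their modulators, 0 passed the threshold without a block (at most 14.4% of all genes did in any comparison). Zbp1, which senses Z-form nucleic acid, read 6.82, 6.07 and 2.55 RPKM for middle-aged replicates 1 to 3, 13.9, 19.4 and 7.90 for VCAM1-high, 11.1 and 18.4 for VCAM1-low, and 8.31, 15.6 and 15.01 for VCAM1-negative. All geriatric libraries were higher (1.22 ± 0.38 log2 units in VCAM1-negative, limma adjusted p = 0.0557), and with the replicate block Zbp1 rose in VCAM1-high cells (1.26 ± 0.31, adjusted p = 0.0452). Dhx58, a regulator of RNA sensing, read 2.88, 1.64 and 2.14 RPKM for middle-aged replicates 1 to 3, 4, 4.66 and 3.23 for VCAM1-high, 3.31 and 5.42 for VCAM1-low, and 3.22, 4.29 and 4.78 for VCAM1-negative. Geriatric and middle-aged libraries did not overlap (0.67 ± 0.22 log2 units in VCAM1-negative, limma adjusted p = 0.0673). Ifih1, the sensor of long double-stranded RNA, read 5.88, 6.73 and 4.35 RPKM for middle-aged replicates 1 to 3, 9.25, 10.5 and 5.61 for VCAM1-high, 7.84 and 11.9 for VCAM1-low, and 7.93, 11.7 and 9.03 for VCAM1-negative. VCAM1-high replicate 3 lay inside the middle-aged range. Eif2ak2, the kinase that halts translation on double-stranded RNA, stayed between 2.69 and 4.74 RPKM in all 11 libraries.

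The oligoadenylate synthetase family was split. Oasl1, a family member without synthetase activity, had the largest fold change of all members. It read 3.27, 1.58 and 2.64 RPKM for middle-aged replicates 1 to 3, 9.77, 21.6 and 13.1 for VCAM1-high, 10.7 and 29.7 for VCAM1-low, and 10.5, 28.5 and 21.3 for VCAM1-negative. All geriatric libraries lay above the middle-aged ones, and the gates overlapped each other. Oasl1 rose by 2.52 ± 0.43 log2 units in VCAM1-negative (limma adjusted p = 0.00885) and 2.47 ± 0.48 in VCAM1-low cells (adjusted p = 0.028). In VCAM1-high cells the difference was 2.14 ± 0.43 (adjusted p = 0.057, and 0.0156 with the replicate block).

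Oasl2 read 24.6, 21.4 and 17.0 RPKM for middle-aged replicates 1 to 3, 42.3, 43.3 and 34.8 for VCAM1-high, 36.5 and 55.8 for VCAM1-low, and 27.6, 51.5 and 57.4 for VCAM1-negative. It rose in VCAM1-negative cells (1.03 ± 0.28 log2 units, limma adjusted p = 0.035), although VCAM1-negative replicate 1 lay only just above the middle-aged range. The classical synthetases, which make the messenger that activates RNase L, were near the floor. Oas1a read 0.846, 0.190 and 1.203 RPKM for middle-aged replicates 1 to 3, 0.185, 0.0654 and 1.91 for VCAM1-high, 0 and 0.483 for VCAM1-low, and 0.732, 0.790 and 0.557 for VCAM1-negative. Oas2 read at most 0.654 and Oas3 at most 0.0995 RPKM. The highest value of all 3 was in VCAM1-high replicate 3, the library with the most macrophage transcripts, and whether those cells supply it was not tested. Oas1a shares 47.6% of the 75-base stretches of its longest transcript with Oas1g, so its reads may be split between those genes.

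The IFIT genes encode proteins that bind viral RNA. Ifit1, which recognizes incompletely capped RNA, read 81.8, 75.6 and 70.8 RPKM for middle-aged replicates 1 to 3, 196, 257 and 131 for VCAM1-high, 141 and 291 for VCAM1-low, and 141, 263 and 153 for VCAM1-negative. The middle-aged libraries were tightly grouped and the geriatric ones spread over a wide range above them. Ifit1 rose by 1.22 ± 0.33 log2 units in VCAM1-negative cells (limma adjusted p = 0.035) and, with the replicate block, by 1.29 ± 0.23 in VCAM1-high cells (adjusted p = 0.018).

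Ifit3 read 34.8, 30.5 and 24.6 RPKM for middle-aged replicates 1 to 3, 69.1, 102 and 54.6 for VCAM1-high, 48.9 and 108 for VCAM1-low, and 47.9, 98.1 and 55.0 for VCAM1-negative. Its copy Ifit3b read 13.6, 13.5 and 8.01 for middle-aged replicates 1 to 3, 29.7, 46.999 and 19.995 for VCAM1-high, 20.8 and 49.97 for VCAM1-low, and 17.7, 48.4 and 21.2 for VCAM1-negative. Both followed Ifit1 in being highest in the number-2 libraries. The copies share 41.1% and 35.7% of their 75-base stretches, so their values are not independent and the split between them is uncertain. Both rose in VCAM1-high cells only with the replicate block (limma adjusted p = 0.0206 and 0.021). The fourth family member, Ifit2, read 4.003 to 11.5 RPKM, with geriatric and middle-aged libraries overlapping.

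The interferon-inducible GTPases form a group of 6, of which 1 was called, in VCAM1-low and VCAM1-negative cells (2.22% and 7.06% of all genes rose there). A group this small cannot be told apart from those shares. Mx2, an antiviral dynamin-like protein, read 10.9, 9.18 and 9.40 RPKM for middle-aged replicates 1 to 3, 19.1, 18.5 and 14.1 for VCAM1-high, 17.8 and 24.6 for VCAM1-low, and 14.3, 20.1 and 20.8 for VCAM1-negative. It rose in VCAM1-low (1.02 ± 0.23 log2 units, limma adjusted p = 0.0388) and VCAM1-negative cells (0.82 ± 0.20, adjusted p = 0.0263). Gbp2, a guanylate-binding protein that attacks pathogen vacuoles, read 47.4, 57.3 and 44.3 for middle-aged replicates 1 to 3, 87.0, 156 and 69.6 for VCAM1-high, 64.7 and 150 for VCAM1-low, and 59.6, 130 and 72.2 for VCAM1-negative. The lowest geriatric value lay close to the highest middle-aged one, and the number-2 libraries stood well above the rest.

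Gbp7 read 14.0, 12.1 and 10.4 RPKM for middle-aged replicates 1 to 3, 20.6, 23.4 and 17.6 for VCAM1-high, 16.0 and 19.1 for VCAM1-low, and 12.4, 15.8 and 17.3 for VCAM1-negative. Its group means were in the order VCAM1-high, VCAM1-low, VCAM1-negative, and the VCAM1-negative libraries overlapped the middle-aged ones. Gbp2 and Gbp7 rose in VCAM1-high cells with the replicate block (limma adjusted p = 0.0268 and 0.0438). Gbp3 read 11.5 to 39.7 RPKM with overlap. Igtp, an immunity-related GTPase, read 81.4 to 96.4 at middle age and 101 to 222 across the geriatric libraries, without overlap, and no comparison passed. Irgm1, which regulates the other immunity-related GTPases, was abundant and overlapping, at 668 to 730.3 RPKM at middle age and 522 to 924 across the geriatric libraries.

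Membrane-associated members divided between a rise, a fall and no call. Rsad2 (viperin), a lipid-droplet and endoplasmic reticulum enzyme that makes an antiviral nucleotide, read 7.58, 3.28 and 7.16 RPKM for middle-aged replicates 1 to 3, 11.7, 22.0 and 12.8 for VCAM1-high, 14.1 and 33.2 for VCAM1-low, and 16.5, 30.5 and 15.1 for VCAM1-negative. All geriatric libraries were higher, and Rsad2 rose in VCAM1-negative cells (1.63 ± 0.40 log2 units, limma adjusted p = 0.0254) and missed the threshold in VCAM1-low cells (1.76 ± 0.44, adjusted p = 0.0502).

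Ifi27, a small mitochondrial membrane protein gene, went the other way. It read 273, 171 and 152 RPKM for middle-aged replicates 1 to 3, 167, 89.9 and 126 for VCAM1-high, 146 and 77.4 for VCAM1-low, and 116, 70.3 and 81.4 for VCAM1-negative. The number-2 libraries were the lowest of each geriatric gate, and all VCAM1-negative libraries lay below all middle-aged ones. Ifi27 fell by 1.13 ± 0.33 log2 units in VCAM1-negative cells (limma adjusted p = 0.0426) and, with the replicate block, by 0.63 ± 0.14 in VCAM1-high cells (adjusted p = 0.0374).

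Rtp4, a chaperone of receptor transport, read 60.6, 60.3 and 33.6 RPKM for middle-aged replicates 1 to 3, 98.3, 102 and 47.2 for VCAM1-high, 78.2 and 116 for VCAM1-low, and 55.2, 108 and 54.3 for VCAM1-negative. Both the number-3 libraries of middle-aged and VCAM1-high cells were low for their groups, and the groups overlapped. Ifitm3, which blocks virus entry from endosomes, was the most abundant member at 769 to 1424 RPKM at middle age and 695 to 1542 across the geriatric libraries, with no call. Bst2 (tetherin), which holds budding virus at the membrane, read 19.4 to 45.5 RPKM in middle-aged libraries, and every geriatric library lay inside that range.

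Among the other effectors, 0 of 6 tested members passed without a block (at most 14.4% of all genes did in any comparison). Sp100, a nuclear body protein, read 3.08, 5.29 and 7.33 RPKM for middle-aged replicates 1 to 3, 10.6, 7.82 and 9.65 for VCAM1-high, 6.23 and 8.78 for VCAM1-low, and 8.46, 8.37 and 9.28 for VCAM1-negative. Sp100 overlapped in VCAM1-low replicate 1 alone. Trim30a read 0.448, 0.226 and 1.498 RPKM for middle-aged replicates 1 to 3, 1.58, 2.35 and 2.07 for VCAM1-high, 1.94 and 2.68 for VCAM1-low, and 1.4, 2.44 and 1.26 for VCAM1-negative. Middle-aged replicate 3 lay inside the geriatric range. Cmpk2, a mitochondrial nucleotide kinase next to Rsad2 in the genome, read 14.4, 8.38 and 9.30 for middle-aged replicates 1 to 3, 15.4, 19.6 and 15.4 for VCAM1-high, 13.4 and 24.5 for VCAM1-low, and 10.8, 25.3 and 22.3 for VCAM1-negative. Ifi35 (43.3 to 100.2 RPKM), Xaf1 (4.75 to 14.7) and Lgals3bp (18.4 to 40.5) overlapped between geriatric and middle-aged libraries. Ifi44 read 0.0941 to 1.201 RPKM.

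**Figure D3:**
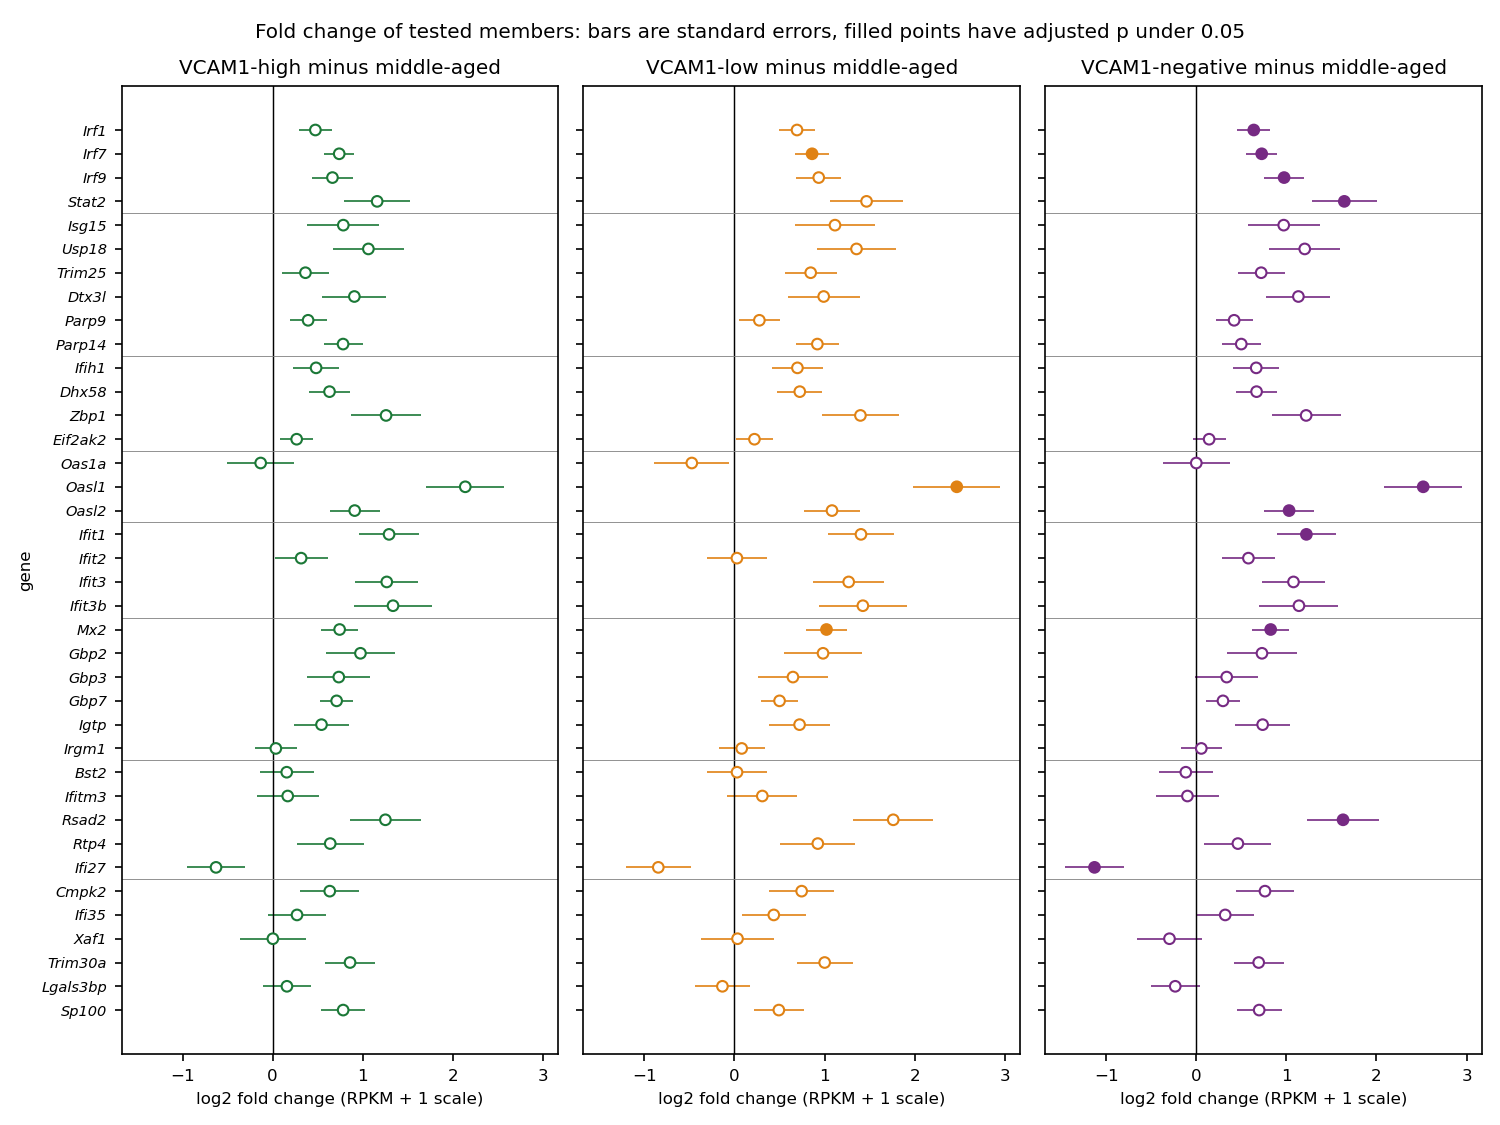
Log2 fold change (RPKM + 1 scale) of the 38 tested members against middle-aged cells, in 1 panel per geriatric gate. Points are limma estimates, bars are standard errors, and filled points have an adjusted p under 0.05 without a block (0, 3 and 9 higher and 0, 0 and 1 lower from left to right). Oasl1 lies farthest to the right and Ifi27 farthest to the left in each panel.

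Between the geriatric gates no member passed without a block. From VCAM1-high to VCAM1-negative cells 0 of 38 passed the limma test (0% of all genes did), 0 were higher and 1 lower at an unadjusted p under 0.05 (6.53% of all genes in either direction), and the median was 0.02 (-0.07 over all genes). Single members differed by -0.50 to 0.48 log2 units, with a median standard error of 0.311. From VCAM1-high to VCAM1-low and from VCAM1-low to VCAM1-negative cells 0 passed (0% of all genes did in both). At an unadjusted p under 0.05 there were 0 members as well (2.91% and 1.88% of all genes). The medians were 0.12 and -0.13 (-0.09 and 0.02 over all genes). The correlations of deviations pair VCAM1-high with VCAM1-negative libraries too (0.414, 0.581 and 0.403 for numbers 1 to 3). With the replicate block in the 8 geriatric libraries 1 of 37 tested members was called, where 3.43% of all genes fell, 0.98% rose and 4.42% changed either way. This was Ifi27, which was lower in VCAM1-negative cells by 0.50 ± 0.10 log2 units (limma adjusted p = 0.0412, and 0.850 without a block). Without a block, Stat2 (0.48 ± 0.36) and Oasl1 (0.38 ± 0.43) did not pass between these gates (limma adjusted p = 0.863 and 0.901). With that block their standard errors were 0.18 and 0.13, and they did not pass either (limma adjusted p = 0.167 and 0.147). In the block fit Stat2, Oasl1 and Rsad2 were higher at an unadjusted p under 0.05. Gbp3, Gbp7, Lgals3bp and Ifi27 were lower. The share of all genes at that level with the block is not given here.

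Levels among the geriatric libraries varied with the replicate number. The mean of the 38 members, as log2(RPKM + 1), was 5.02, 5.23 and 4.78 for VCAM1-high replicates 1 to 3, 4.80 and 5.39 for VCAM1-low, and 4.68, 5.33 and 4.99 for VCAM1-negative. The number-2 library was the highest of each gate, and all 8 means lay above the 3 middle-aged ones of 4.53, 4.29 and 4.23. In 22 of the 38 members (57.9%) the number-2 library was the highest in all 3 geriatric gates, which held for 17.0% of all tested genes. The median difference between replicates 2 and 1 over the members was 0.22 log2 units in VCAM1-high, 0.58 in VCAM1-low and 0.76 in VCAM1-negative cells, and -0.19 in middle-aged cells. Over all genes it lay between -0.13 and 0.04. The labels do not say what the numbers stand for.

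Other features moved with the number-2 libraries. Vcam1 was lowest there in VCAM1-high (188 RPKM, against 418 and 263) and in VCAM1-low cells (115 against 177), but not in VCAM1-negative cells (70.4, against 122 and 48.6). Pax7 read 3.94, 1.97 and 1.71 RPKM in the 3 number-2 geriatric libraries, below the other libraries of each gate. Their part in the result was not tested. The 3 number-2 geriatric libraries were also left out, a choice made after the data were seen. VCAM1-low replicate 1 was then the only library of its gate, and the other gates were smaller too. The medians against middle-aged cells were then 0.53 in VCAM1-high, 0.43 in VCAM1-low and 0.53 in VCAM1-negative.

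**Figure D4:**
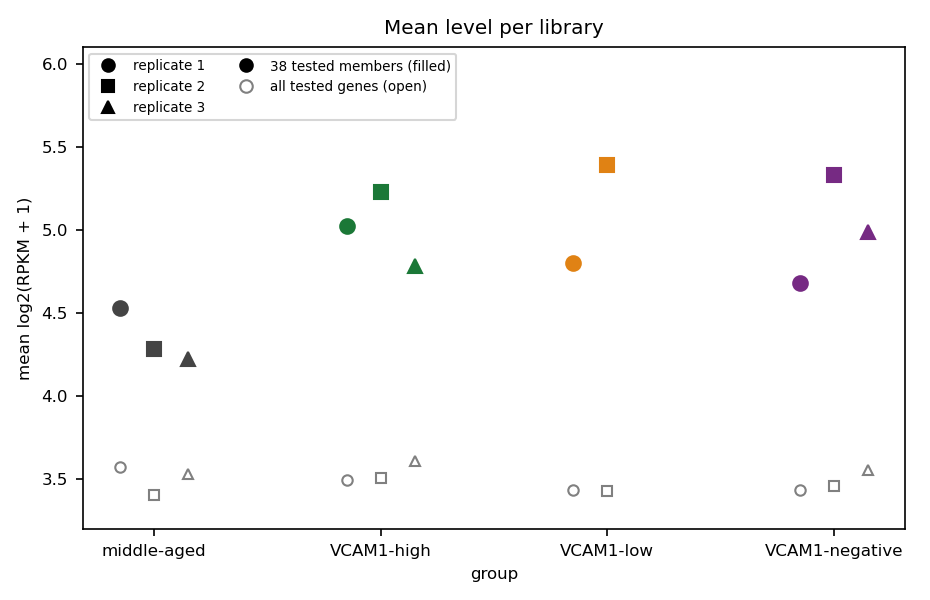
Mean log2(RPKM + 1) per library over the 38 tested members (filled points) and over all 11568 tested genes (open grey points), by group, with the shape giving the replicate number. The member means run from 4.23 to 4.53 in middle-aged and from 4.68 to 5.39 in geriatric libraries, while the means over all genes stay between 3.40 and 3.61.

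Marker transcripts of some other cell types, which can respond to interferon too, were present in every library. All 10 muscle stem cell markers reached 1 RPKM in every library. Their sum was 2829.7 to 3729.7 RPKM in middle-aged, 1909.7 to 3805 in VCAM1-high, 1903 to 2321 in VCAM1-low and 1414 to 2151 in VCAM1-negative libraries. It was lowest in the number-2 library of each geriatric gate (1909.7, 1903 and 1414), where the member means were highest, and its part in the result was not tested. The 11 endothelial markers summed to 16.8 to 226 RPKM in middle-aged, 15.5 to 81.3 in VCAM1-high, 39.9 to 66.2 in VCAM1-low and 35.7 to 104 in VCAM1-negative libraries, and none was at 0 in any library. The 11 macrophage and monocyte markers summed to 23.7 to 163, 33.1 to 980.0, 79.5 to 97.0 and 121 to 247. Ptprc was at 0 in middle-aged replicates 1 and 2, Fcgr1 in middle-aged replicate 2 and VCAM1-high replicate 2, and Adgre1, Csf1r, C1qc, Fcgr1 and Mrc1 in VCAM1-high replicate 1. The 6 neutrophil markers summed to at most 0.737 RPKM in middle-aged and to 2.02 to 48.3 in geriatric libraries, so every geriatric sum exceeded every middle-aged one. All 6 were at 0 in middle-aged replicates 1 and 2, and some were at 0 in other libraries. The part of neutrophils in the result was not tested. The 8 lymphoid and plasmacytoid markers summed to at most 1.13 in any library. All 8 were at 0 in middle-aged replicate 1, and some were at 0 in each other library. The 8 fibro-adipogenic markers summed to 604 to 1234 RPKM in middle-aged, 491 to 892 in VCAM1-high, 524 to 627 in VCAM1-low and 526 to 913 in VCAM1-negative libraries. The 6 mural markers summed to 108 to 399, 69.3 to 156, 42.6 to 77.9 and 52.1 to 114. No fibro-adipogenic or mural marker was at 0 in any library, and the part of these cell types in the result was not tested.

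Endothelial sums and member means were ordered differently in different groups. The endothelial sum was highest in middle-aged replicate 3, which had the lowest member mean of all libraries and was the lowest library for 17 of the 38 members. In VCAM1-high cells it was highest in replicate 3 (81.3 RPKM, against 15.5 and 32.7), which had the lowest member mean of its gate and also the highest macrophage sum (980.0 RPKM, Lyz2 591). In the other gates it was highest where the members were highest, in VCAM1-low replicate 2 (66.2 against 39.9) and in VCAM1-negative replicate 2 (104 against 71.7 and 35.7). The macrophage sum was lower in those replicates than in the others of their gates (79.5 against 97.0 in VCAM1-low, and 121 against 126 and 247 in VCAM1-negative). The part of either cell type in the result was not tested. Without both number-3 libraries of middle-aged and VCAM1-high cells, 7 members rose and 1 fell in VCAM1-negative cells (limma). The share of all genes called in that fit is not given here. Acta1, the skeletal actin of mature fibers, read 280, 3040 and 2254 RPKM in VCAM1-negative and 15.4 to 109 in the other libraries, and its part in the VCAM1-negative result was not tested.

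The rest of the interferon pathway was examined in 5 further gene lists. Of the 14 interferon genes listed, 0 reached the level for testing. Ifnz was the highest, at 0.0999 to 0.424 RPKM, and Ifng, for the type II interferon, read at most 0.419 and was at 0 in 7 libraries. Ifna1, Ifna2, Ifna5, Ifna12, Ifna13, Ifne and Ifnk were at 0 in all 11 libraries, and Ifnb1 was above 0 in 2. At the estimated depth of 19.9 to 29.8 Mreads (M for mega), 1 read of a gene of 1 kb is 0.0336 to 0.0503 RPKM, so these values stand for few reads.

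Of 14 receptor, kinase and factor genes tested, 0 passed in VCAM1-high and VCAM1-low cells and 1 rose in VCAM1-negative cells (Stat3, 0.74 ± 0.19 log2 units, limma adjusted p = 0.0295), a share near the 7.06% of all genes that rose there. The medians were 0.41, 0.32 and 0.29, against 0.04, -0.05 and -0.02 over all genes. Ifngr1, the ligand-binding chain of the type II receptor, read 101, 76.9 and 92.9 RPKM for middle-aged replicates 1 to 3, 159, 172 and 140 for VCAM1-high, 127 and 155 for VCAM1-low, and 123, 136 and 123 for VCAM1-negative. All geriatric libraries were higher, and the difference did not pass (0.80 ± 0.17 in VCAM1-high, adjusted p = 0.0673). Il10rb, a chain of the type III receptor, read 14.4 to 21.2 RPKM at middle age and 23.6 to 48.6 across the geriatric libraries, without overlap, and did not pass (0.94 ± 0.24 in VCAM1-high, limma adjusted p = 0.102). Ifnlr1, the other type III receptor gene listed, read at most 0.116 RPKM and did not reach the level for testing.

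Of 14 tested genes of nucleic acid sensing, 4 rose and 2 fell in VCAM1-negative cells, and 0 passed in the other gates. Of all genes 7.06% rose and 7.38% fell in VCAM1-negative cells. Sting1, the adaptor of cytosolic DNA sensing, read 35.9, 18.9 and 27.1 RPKM for middle-aged replicates 1 to 3, 43.7, 69.6 and 49.6 for VCAM1-high, 42.6 and 73.2 for VCAM1-low, and 46.8, 67.1 and 72.1 for VCAM1-negative. It rose by 1.18 ± 0.29 log2 units in VCAM1-negative cells (limma adjusted p = 0.0279). Cgas, which makes the messenger that activates STING, read 2.24 to 2.56 at middle age and 2.94 to 7.91 across the geriatric libraries and did not pass (0.86 ± 0.32, adjusted p = 0.0921). Dnase2a, a lysosomal DNase, rose (1.08 ± 0.26, adjusted p = 0.0233). The others were picked out after their values were seen: Samhd1 and Adar rose (1.44 ± 0.35 and 0.98 ± 0.24), and the kinase gene Ikbke and the RNase H2 subunit gene Rnaseh2c fell (-1.11 ± 0.25 and -0.99 ± 0.30, limma adjusted p = 0.0214 and 0.0467).

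Of 7 tested feedback genes, 1 rose in VCAM1-low and VCAM1-negative cells (2.22% and 7.06% of all genes rose), the cytokine signalling inhibitor Socs3. It read 1082, 1007 and 844 RPKM for middle-aged replicates 1 to 3, 1484, 2004 and 1268 for VCAM1-high, 1989 and 2226 for VCAM1-low, and 2018, 2228 and 2018 for VCAM1-negative. The rise was 1.10 ± 0.19 log2 units in VCAM1-negative (limma adjusted p = 0.00922) and 1.11 ± 0.21 in VCAM1-low cells (adjusted p = 0.0271). Ptpn2, a phosphatase of JAK and STAT proteins, and Irf2bp2 did not pass (limma adjusted p = 0.0914 and 0.127 in VCAM1-negative).

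Of 50 other interferon-stimulated genes tested, 2 rose in VCAM1-high, 5 in VCAM1-low and 9 in VCAM1-negative cells, where 0.475%, 2.22% and 7.06% of all genes rose. The medians were 0.60, 0.55 and 0.61, against 0.04, -0.05 and -0.02 over all genes. Ifi47, an immunity-related GTPase, read 17.9, 18.5 and 17.9 RPKM for middle-aged replicates 1 to 3, 67.2, 96.1 and 43.5 for VCAM1-high, 57.8 and 105 for VCAM1-low, and 44.5, 91.7 and 51.3 for VCAM1-negative. It rose by 1.80 ± 0.34 log2 units in VCAM1-high cells (limma adjusted p = 0.0413), again with the number-2 library highest in each gate. Slfn8, a Schlafen family gene, read 2.39 to 3.45 at middle age and 8.36 to 20.5 across the geriatric libraries and rose in all 3 gates (1.72 ± 0.30, 2.02 ± 0.33 and 1.99 ± 0.30; adjusted p = 0.0313, 0.0156 and 0.00534). Phf11d did not pass in VCAM1-high cells (0.84 ± 0.20, adjusted p = 0.0961). The 1 gene that fell was Ly6e in VCAM1-negative cells (-0.89 ± 0.27, adjusted p = 0.0479), named after its value was seen.

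**Figure D5:**
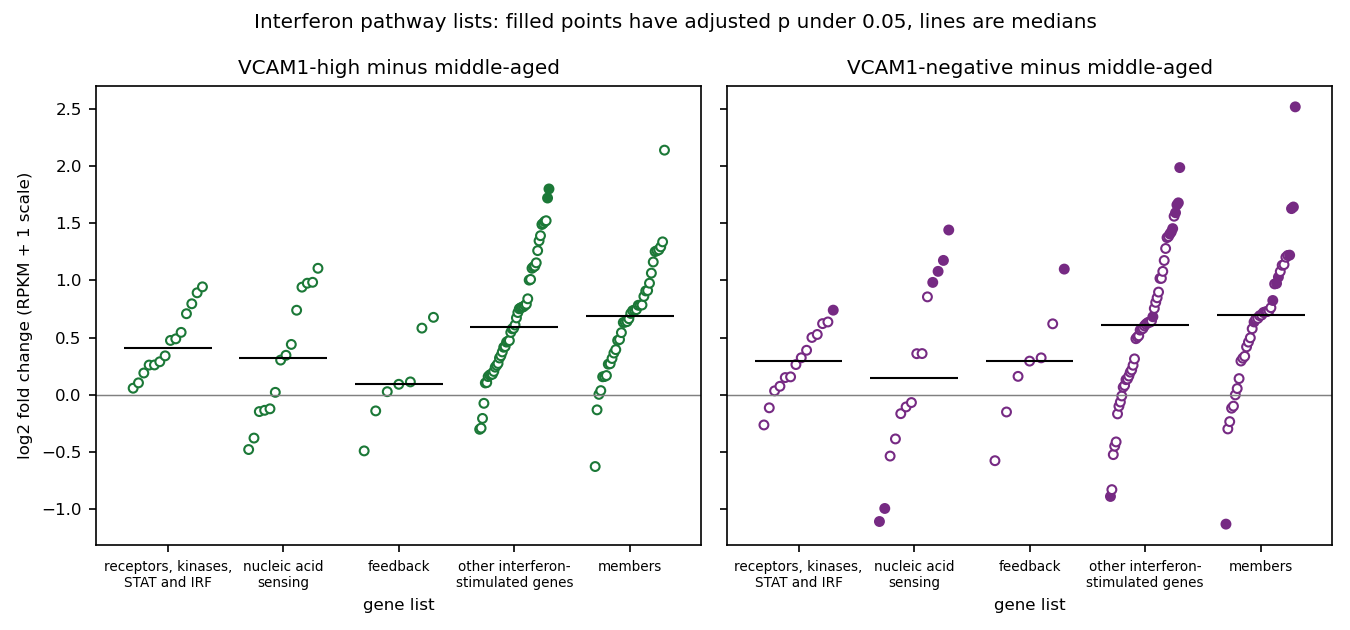
Log2 fold change (RPKM + 1 scale) of each tested gene of 4 pathway lists and of the 38 members, against middle-aged cells, in VCAM1-high (left) and VCAM1-negative cells (right). Filled points have an adjusted p under 0.05 and lines are list medians, which for the members are 0.69 in both panels.

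Of the 32 members with a promoter window 18 (56.2%) hold the ISRE core. Among the 10 members called against middle-aged cells, the ISRE core lies in the promoter windows of Stat2, Ifit1 and Rsad2. It does not lie in those of Irf1, Irf7, Irf9, Oasl1 and Oasl2, and no window was available for Mx2 and Ifi27. Members with the core that did not pass without a block include Ifit3, Ifit3b, Gbp2 and Igtp, with all geriatric libraries above the middle-aged ones, and Irgm1, Ifitm3 and Bst2, with overlap.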

How the data were processed

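The authors deposited 1 RPKM value per gene symbol and library. Per the submitters' processing notes, STAR 2.7.5b and Bowtie2 2.1.0 were used with SAMtools 0.1.19, cutadapt 3.1 and the build GRCm39. Roles, counter and annotation: not given in the sources used here. SMART-Seq v4 libraries do not keep strand, so reads of overlapping genes cannot be told apart.

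The values were tested as log2(RPKM + 1), for genes that reached 1 RPKM in 2 libraries or more, with limma 3.58.1 (R 4.3.3; group means, variance trend, Benjamini-Hochberg adjustment, threshold 0.05). The fit was also run on data simulated with noise independent between libraries, without the shared deviations seen here. Its outcome is not given. The members and gene lists were chosen with earlier results of these data known. Library values are given for the 3 members of each role group with the smallest p between VCAM1-high and middle-aged cells, for every called member, and, chosen later, for Isg15. Of each pathway list 3 genes are named likewise, except 1 that is not reported here.

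By the correlation of deviations from group means, replicate numbers pair VCAM1-high libraries with middle-aged and VCAM1-negative ones (0.1 or more in every pair). They do not pair VCAM1-negative with middle-aged ones (-0.0246 to 0.0808). VCAM1-low libraries gave 0.147 and 0.0318 with middle-aged ones for numbers 1 and 2, so not every pair reached 0.1. With VCAM1-high ones they gave 0.486 and 0.509, and with VCAM1-negative ones 0.523 and 0.569. Depth was estimated from the step that 1 read makes in low RPKM values of 3428 single-transcript genes. Of these values, 63.5% to 72.4% fell no more than 0.1 read from a whole number (20% by chance).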

Additional observations from a re-analysis of the deposited data

How the results depend on the processing

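Without a block, members called in VCAM1-high cells against middle-aged cells were 0, and 1 with a pseudocount of 0.1 RPKM or a filter on the mean at 5 RPKM. With the replicate block in 11 libraries 12 were called there, where 6.98% of all genes were called (0.605% without a block). In VCAM1-negative cells 22 were called (main value 10, 21 up and 1 down), where 31.6% of all genes were called. In VCAM1-low cells 16 were called (main value 3). The share of all genes called is not given here for that count or for the other settings and omissions. Counts without that share cannot tell the members from other genes. Replicate numbers do not pair VCAM1-negative with middle-aged libraries. For VCAM1-low and middle-aged libraries the correlations were 0.147 and 0.0318 for numbers 1 and 2. Within the 8 geriatric libraries the replicate block called 1 member between VCAM1-negative and VCAM1-high, and no other call between gates changed with a block. In VCAM1-low cells 5 were called with median-of-ratios scaling, 5 in a fit of only the 2 groups compared, 7 with the filter on the mean and 0 with no filter on low values, which left 5 in VCAM1-negative cells. Without the 3 number-2 geriatric libraries, which left VCAM1-low replicate 1 alone in its gate, the VCAM1-low median was 0.43. The cause was not tested.

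Leaving out 1 library at a time gave 0 to 1, 0 to 7 and 1 to 13 calls for the VCAM1-high, the VCAM1-low and the VCAM1-negative gate; a VCAM1-low library left alone is assumed to vary like the other groups. The medians ran from 0.53 to 0.78, 0.43 to 1.05 and 0.53 to 0.79, and between gates from -0.20 to 0.48 (VCAM1-low minus VCAM1-high), -0.15 to 0.15 (VCAM1-negative minus VCAM1-high) and -0.41 to 0.25 (VCAM1-negative minus VCAM1-low). Of the named genes only Oas1a changed sign against middle-aged cells. In VCAM1-negative cells it turned to 0.019 with an equal RPKM sum, 0.011 with median-of-ratios scaling, 0.15 with a pseudocount of 0.1, and ran from -0.26 to 0.062 with 1 library left out. In VCAM1-high cells it turned to 0.14 without the number-2 geriatric libraries and ran from -0.39 to 0.14 with 1 library left out.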
